A study of Mus musculus with 15 samples.

Results

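The genes described here are the transcription factors through which the circadian clock passes its rhythm to other genes: the PAR bZIP factors Dbp, Tef and Hlf, the REV-ERB nuclear receptors Nr1d1 and Nr1d2, and the DEC repressors Bhlhe40 and Bhlhe41. They were chosen by name, through the accession that the array files give for each probe. Of the 18350 genes with a symbol on the array, these are 7, measured by 12 of the 41174 probes, and all 12 probes were well above background on all 15 arrays.

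Heart RNA of 15 C57BL/6 mice, young adult at the first injection, was hybridised to Agilent 1-colour arrays, 1 mouse to an array. The 4 groups, named here by sex and treatment, were taken after 5 months of weekly injections into the abdomen: 4 males and 4 females given methamphetamine hydrochloride (meth) in PBS, in a dose raised step by step to 40 mg/kg, and 4 males and 3 females given PBS alone on the same schedule. The male groups each held 2 mice of a first trial and 2 of a second, whereas the titles place all females in trial 1. The source names of female meth replicates 3 and 4 and female PBS replicate 3 say trial 2 instead, and the titles were used here. No mouse carried a transgene or deletion, all were of 1 strain, and the hour of the day at which the hearts were taken is not given in the sources used here.

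In the clock of each cell, CLOCK and BMAL1 (the product of Arntl) bind the E-box and switch on the genes of their own repressors, the PER and CRY proteins, together with the output factors measured here. DBP, TEF and HLF then activate genes with a D-box, REV-ERB alpha and beta (from Nr1d1 and Nr1d2) repress Arntl and other genes through ROR elements, and DEC1 and DEC2 (from Bhlhe40 and Bhlhe41) repress at the E-box. In heart and other peripheral tissues the transcripts of these factors rise and fall over the day against Arntl, so that a heart taken at a single hour gives 1 point of that rhythm.

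Values are normalized log2 signals, the log2 of the spot intensity minus the 75th percentile of its array, so that 1 unit is a doubling. A probe with a value of 0 stands at that percentile, and levels of different probes are not compared with each other, since probes differ in how brightly they bind. Differences are meth minus PBS on this log2 scale, from a limma fit over all 15 arrays with the trial as a covariate, with p-values adjusted by the Benjamini-Hochberg method over the 28367 probes tested and a threshold of 0.05. The labels name separate mice and nothing on litters or cages. In RNA of a whole tissue, fewer cells of a type and less RNA per cell cannot be told apart.

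The stretches before the start sites of these genes show where such elements lie. RefSeq promoters of GRCm38.p6, searched on both strands over the 250 bases before each start, were given for 6 of the 7 genes, 2 starts for Tef among them. Bhlhe40 was not matched. The letters sought were the E-box CACGTG, its variant CACGTT, the D-box TTANGTAA, the core AGGTCA of the element shared by REV-ERB and ROR receptors and the CRE TGACGTCA, and no 2 matches overlapped. The stretches below are shown because they hold these matches, in capitals, or, for Dbp, because none was found in the window of the gene that differed most after meth.
Tef start 1 (chr15:81802490-81802607, + strand): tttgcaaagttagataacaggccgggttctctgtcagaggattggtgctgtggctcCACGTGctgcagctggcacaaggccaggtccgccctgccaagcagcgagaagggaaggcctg
Tef start 2 (chr15:81811220-81811337, + strand): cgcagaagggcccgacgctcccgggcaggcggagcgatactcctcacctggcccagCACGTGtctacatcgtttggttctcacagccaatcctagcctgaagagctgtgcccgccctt
Bhlhe41 (chr6:145865512-145865629, - strand): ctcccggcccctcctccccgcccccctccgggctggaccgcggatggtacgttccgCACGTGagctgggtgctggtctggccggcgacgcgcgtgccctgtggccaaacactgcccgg
Nr1d1 (chr11:98775378-98775461, - strand): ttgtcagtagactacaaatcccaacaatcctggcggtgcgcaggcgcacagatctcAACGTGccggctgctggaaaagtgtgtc
Nr1d2 (chr14:18239122-18239239, - strand): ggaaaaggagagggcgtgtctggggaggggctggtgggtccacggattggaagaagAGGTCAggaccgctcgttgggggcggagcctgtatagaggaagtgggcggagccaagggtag
Hlf (chr11:90390918-90390982, - strand): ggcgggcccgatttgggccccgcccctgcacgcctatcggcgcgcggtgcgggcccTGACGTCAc
Dbp (chr7:45705135-45705246, + strand): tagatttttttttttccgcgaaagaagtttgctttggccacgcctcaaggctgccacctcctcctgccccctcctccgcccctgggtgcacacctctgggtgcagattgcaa

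The perfect E-box stood 127 and 138 bases before the 2 starts of Tef and 153 bases before that of Bhlhe41, and 6.02% of all 32851 promoters in the table hold one. The Nr1d1 stretch held the E-box variant, read as AACGTG on the strand shown, 28 bases before the start (3.85% of all promoters). Nr1d2 had that core at 77 bases (14.0%) and Hlf a CRE at 9 bases (1.55%). No window of these genes held the D-box, which is in 2.06% of all promoters. A match describes the sequence and is not a measured binding site.

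Over both sexes, 6 of the 7 genes were higher after meth and passed the threshold, against 1.12% of all probes called higher in that comparison. These were Dbp, Tef, Hlf, Nr1d2, Bhlhe40 and Bhlhe41, with differences from 0.46 to 1.39, while Nr1d1 had a difference of 0.22 (adjusted p = 0.492). Within a sex, 3 genes passed in males (Dbp, Tef and Hlf, background 0.800% of probes) and 1 in females (Tef, background 0.204%). All 7 differences were above 0 in each sex, with a median of 0.68 in males and 0.57 in females, where the medians of all probes were -0.03 and 0.00.

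**Figure D1:**
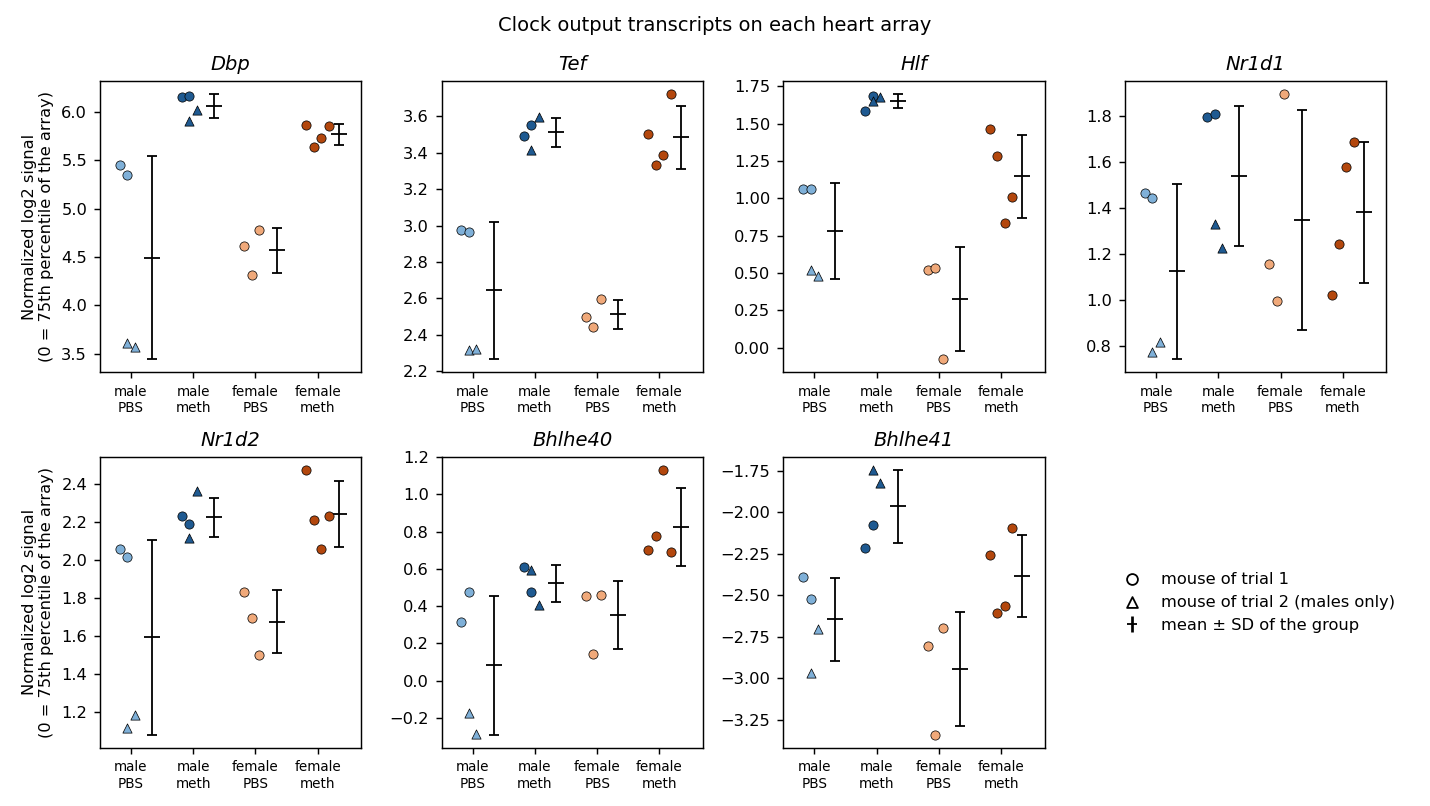
Normalized log2 signal of the 7 clock output genes (y axis, 0 is the 75th percentile of the array) in male and female hearts after PBS or meth, with 1 point for each mouse, circles for trial 1, triangles for trial 2, and bars for the mean ± SD of 4 arrays (3 for female PBS). In both sexes the meth points of Dbp, Tef, Hlf, Nr1d2 and Bhlhe41 lie above all PBS points of the same sex, and those of Nr1d1 do not.

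Dbp, which takes its name from the albumin promoter it was found on, gave the largest difference of the 7 in both sexes. On the male meth arrays its normalized log2 signal (probe A_51_P180492) was 6.16 and 6.16 in trial 1 and 5.91 and 6.02 in trial 2. On the male PBS arrays it was 5.46 and 5.34 in trial 1 and 3.61 and 3.57 in trial 2. The male groups did not overlap, and the PBS hearts of the second trial stood far below those of the first. The means of 4 arrays were 6.06 ± 0.12 (SD) with meth and 4.49 ± 1.05 (SD) with PBS, a difference of 1.57 (SE 0.25, adjusted p = 0.0105), or 2.96-fold.

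In females Dbp read 5.87, 5.64, 5.73 and 5.86 after meth and 4.62, 4.31 and 4.78 after PBS, again without overlap. The difference was 1.20 (95% interval 0.62 to 1.79), or 2.30-fold, just short of a call (adjusted p = 0.0660). Dbp was called in females in a fit of female arrays alone (adjusted p = 0.0399) and with trial 1 arrays alone (0.00622). A filter on all 15 arrays (0.0420) and the slide as a random block (0.0426) also called it, but the replicate number as a block did not (0.221). The meth hearts of both sexes were narrowly grouped, with SDs of 0.12 and 0.11, while the male PBS hearts ran from 3.57 to 5.46.

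Tef, the thyrotroph embryonic factor, is the second PAR bZIP gene and was called in both sexes, though in neither with the replicate number as a block, as given further down. After meth its main probe (A_52_P485573) read 3.49 and 3.55 in trial 1 males and 3.41 and 3.60 in trial 2 males. After PBS the values were 2.98 and 2.96 in trial 1 and 2.32 and 2.32 in trial 2. No meth array of a male lay below any male PBS array, and the difference was 0.87 (SE 0.12, adjusted p = 0.00576).

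The female values of Tef were 3.50, 3.33, 3.39 and 3.72 after meth and 2.50, 2.44 and 2.60 after PBS. With a difference of 0.97 (SE 0.13, adjusted p = 0.00831), or 1.96-fold, it was the only gene of the 7 past the threshold in females. In the fit of female arrays alone, which called Dbp, Tef was not called (adjusted p = 0.0621). The other two probes of Tef gave 0.72 and 0.88 in males (adjusted p = 0.0061 and 0.032) and 0.60 and 0.84 in females (adjusted p = 0.0327 and 0.0617). All 3 probes separated meth from PBS arrays completely in both sexes.

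Hlf, the hepatic leukemia factor, completes the PAR bZIP group. Its normalized log2 signal (probe A_51_P134228) was 1.59 and 1.69 in trial 1 and 1.65 and 1.68 in trial 2 in male meth hearts, against 1.06 and 1.06 in trial 1 and 0.52 and 0.48 in trial 2 in male PBS hearts. The male meth arrays lay close together, and the PBS arrays fell apart by trial. The difference was 0.87 (SE 0.17, adjusted p = 0.0320), or 1.83-fold.

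In females Hlf read 1.46, 1.28, 0.83 and 1.01 after meth and 0.52, 0.53 and -0.07 after PBS. Female replicates 3 and 4 after meth and replicate 3 after PBS, which shared a slide, were the lowest of their groups. The groups did not overlap, and the difference was 0.82 (SE 0.18, adjusted p = 0.0660), or 1.77-fold. Hlf was called in females at 0.91 (adjusted p = 0.0118) with the slide as a block, at 0.87 (adjusted p = 0.0130) with it as a random block and at 0.88 (adjusted p = 0.00981) with the trial of the source name. A filter on all 15 arrays called it too (adjusted p = 0.0425). In 27 of 31 alternatives Hlf was not called in females, with adjusted p = 0.0712 for the replicate number as a block. Hlf had the lowest unadjusted p of the 7 in the comparison of the PBS hearts of both sexes, given further down.

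Nr1d2 encodes REV-ERB beta, a heme-binding repressor of Arntl. After meth the males read 2.23 and 2.19 in trial 1 and 2.11 and 2.36 in trial 2 (probe A_52_P303891). After PBS they read 2.06 and 2.02 in trial 1 and 1.12 and 1.18 in trial 2. The female values were 2.47, 2.21, 2.05 and 2.23 after meth and 1.83, 1.70 and 1.50 after PBS. Meth and PBS arrays did not overlap in either sex, but the gap in trial 1 males was small, and the differences of 0.63 in males (SE 0.16, adjusted p = 0.107) and 0.57 (SE 0.18, adjusted p = 0.195) in females passed the threshold only when averaged, at 0.60 (SE 0.12, adjusted p = 0.0223).

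Nr1d1 encodes REV-ERB alpha, the paralog with the same known role, and it was the only gene of the 7 not called in either sex or in their average in the fit described above. The male meth arrays read 1.80 and 1.81 in trial 1 and 1.33 and 1.23 in trial 2, and the male PBS arrays 1.46 and 1.44 in trial 1 and 0.77 and 0.82 in trial 2 (probe A_51_P223776). In each trial the meth arrays were above the PBS arrays, yet the trials lay far enough apart for the groups to overlap. The male difference was 0.42 (95% interval 0.02 to 0.81, adjusted p = 0.363), and it was called with the slide as a block (adjusted p = 0.0344), in a fit of male arrays alone (0.0377) and with array weights (0.0465). In 30 of 33 alternatives it was not called, with adjusted p = 0.122 for the replicate number as a block.

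In females Nr1d1 was 1.02, 1.24, 1.58 and 1.69 after meth and 1.16, 1.00 and 1.90 after PBS, with the highest value on a PBS array. The difference was 0.03 (95% interval -0.39 to 0.46, adjusted p = 0.978), so the data allow a change of either sign in females. Its other two probes gave 0.26 and 0.31 in males and 0.08 and 0.05 in females, none called. Within a slide, the female difference was -0.13, 0.25 and -0.26 on slides 1, 2 and 4, while in males it was 0.33, 0.37 and 0.48 on slides 1 to 3.

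Bhlhe40 encodes DEC1. In males it read 0.61 and 0.47 in trial 1 and 0.60 and 0.40 in trial 2 after meth, against 0.32 and 0.48 in trial 1 and -0.17 and -0.29 in trial 2 after PBS (probe A_51_P272553). Replicate 2 of the trial 1 PBS hearts, at 0.48, lay among the meth hearts, so the groups overlapped, and the exact permutation test over the 8 male arrays gave p = 0.0857. In females the values were 0.70, 0.78, 1.13 and 0.69 after meth and 0.45, 0.14 and 0.46 after PBS, without overlap. The male difference was 0.44 (SE 0.14, adjusted p = 0.191), the female one 0.47 (SE 0.15, adjusted p = 0.205), and their average 0.46 (SE 0.10, adjusted p = 0.0368).

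Bhlhe41 encodes DEC2, the partner of DEC1 in repression at the E-box. Its main probe (A_51_P451176) read -2.21 and -2.08 in trial 1 and -1.74 and -1.82 in trial 2 after meth, and -2.39 and -2.52 in trial 1 and -2.97 and -2.71 in trial 2 after PBS. The female values were -2.26, -2.61, -2.57 and -2.10 after meth and -2.81, -3.34 and -2.70 after PBS. By this probe neither sex overlapped, although female meth replicates 2 and 3 came close to the highest PBS array. The differences were 0.68 in males (adjusted p = 0.116), 0.57 in females (adjusted p = 0.258) and 0.62 averaged (SE 0.13, adjusted p = 0.0305). The second probe (A_52_P618912) gave 0.60 in males (adjusted p = 0.179), 0.53 in females (adjusted p = 0.300) and 0.56 averaged (adjusted p = 0.0464). By that probe the female groups overlapped, with 3 of 4 meth arrays above every PBS array and an exact permutation p of 0.0571.

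Counting main probes, every meth array stood above every PBS array for 5 genes in males and 6 in females, where 4.68% and 3.15% of all probes did so. By exact two-sided permutation tests within a sex, each of these genes had p = 0.0286, the smallest p that either design allows. The lack of overlap alone fixes that p, so it adds nothing to these counts, and the male test regrouped arrays across the trials. Regrouping the arrays within sex, and within trial in males, gave p = 0.00079 over both sexes for Dbp, Tef, Hlf, Nr1d2 and Bhlhe41, which is the smallest that exact test can give, 0.0016 for Bhlhe40 and 0.164 for Nr1d1. Within each of the 6 pairings of sex and slide the meth mean was higher for Dbp (0.70 to 2.38), Tef (0.52 to 1.19), Hlf (0.52 to 1.16), Nr1d2 (0.17 to 1.09) and Bhlhe41 (0.18 to 1.05). Bhlhe40 was higher in 5 of 6 and Nr1d1 in 4 of 6.

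**Figure D2:**
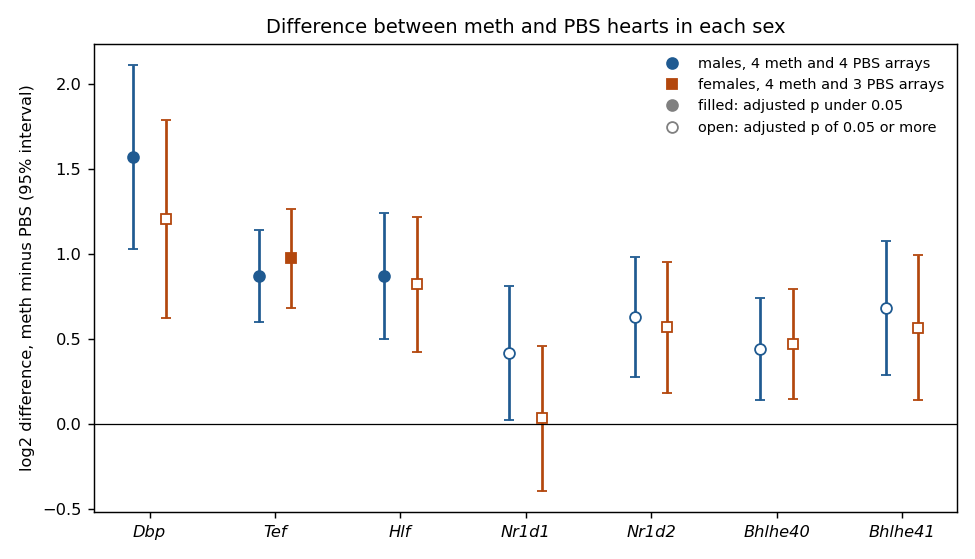
Difference between meth and PBS hearts for each gene (y axis, log2, with limma's 95% interval) in males (circles) and females (squares), filled where the adjusted p is under 0.05. Dbp is highest in both sexes, at 1.57 and 1.20, and the interval of Nr1d1 in females, from -0.39 to 0.46, includes 0.

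Several of these calls depended on the fit or on single arrays. With the replicate number as a block, Hlf alone stayed past the threshold in males (adjusted p = 0.0445), with 0.0947 for Dbp and 0.0524 for Tef, no gene passed in females (Tef 0.0749), and Dbp, Tef and Hlf passed in the average, with 0.0822 for Nr1d2, 0.0786 for Bhlhe40 and 0.0878 for Bhlhe41. The male call of Hlf was lost without any 1 of 7 male arrays, all but meth replicate 1 of trial 1, with adjusted p from 0.0652 to 0.117, and the female call of Tef without PBS replicate 2 (0.0547). In the average, the calls of Bhlhe40 and Bhlhe41 were each lost without any of 8 single arrays (up to 0.100 and 0.0759) and that of Nr1d2 without female PBS replicate 2 (0.0559) or male PBS replicate 2 of trial 2 (0.0552).

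Paralogs can also be set against each other within an array, as the difference of their log2 signals, which shows whether they changed unequally. Of the 5 pairs within these families, Dbp minus Tef rose after meth by 0.46 over both sexes, 0.70 in males and 0.23 in females. Its exact permutation p, regrouped within sex and male trial, was 0.0024, or 0.0119 after adjustment over the 5 pairs, and 6 of 8 meth arrays exceeded every PBS array of their sex. By trial, the male differences of Dbp and Tef were 0.76 and 0.55 in trial 1 and 2.38 and 1.19 in trial 2. The change of Dbp over Hlf was 0.54 (adjusted exact p = 0.0635), and those of Nr1d2 over Nr1d1 (0.37), Bhlhe41 over Bhlhe40 (0.17) and Tef over Hlf (0.08) had adjusted exact p of 0.185, 0.312 and 0.608.

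Whether the sexes responded differently was tested as the male minus the female difference. None of the 7 genes passed in limma, none had an unadjusted p under 0.05, and the background was 0.137% of probes. The largest were Nr1d1 at 0.38 (95% interval -0.20 to 0.96, adjusted p = 0.727) and Dbp at 0.36 (95% interval -0.43 to 1.16, adjusted p = 0.826). The other five lay between -0.10 for Tef and 0.12 for Bhlhe41. With trial 1 arrays alone the sign turned for Dbp (-0.45, unadjusted p = 0.0433, adjusted p = 0.863), Nr1d2 (-0.40), Bhlhe41 (-0.26) and Hlf (-0.24). The 95% interval was -0.47 to 0.41 for Bhlhe40, whose response was 0.44 in males. It takes in sex differences about as large as that response in either direction.

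The PBS hearts of males and females, compared to see whether these genes start from the same level, gave no call among the 7 in limma, with a background of 0.462% of probes. By main probes Hlf was the 1 gene with an unadjusted p under 0.05, at 0.59 male minus female (SE 0.20, adjusted p = 0.209), where 15.2% of all probes had one. The second probe of Bhlhe41 had one too, at 0.63 (adjusted p = 0.209). The other differences were 0.43 for Dbp, 0.30 for Tef, 0.31 for Bhlhe41, 0.13 for Nr1d2, 0.07 for Nr1d1 and -0.10 for Bhlhe40. These rest on 3 female PBS arrays and on male PBS arrays that differed by trial.

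In males these genes differed between the 2 trials, more in the PBS hearts than in the meth hearts. From trial 1 to trial 2 the mean PBS signal of all 7 genes was lower, by amounts from -0.38 for Bhlhe41 to -1.81 for Dbp on the log2 scale. The meth means moved between -0.53 for Nr1d1 and 0.36 for Bhlhe41. The 2 arrays of the same treatment and trial were close throughout, with a median gap of 0.07 and a largest gap of 0.27. The female PBS arrays of Dbp (4.31 to 4.78) fell between the PBS males of both trials.

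**Figure D3:**
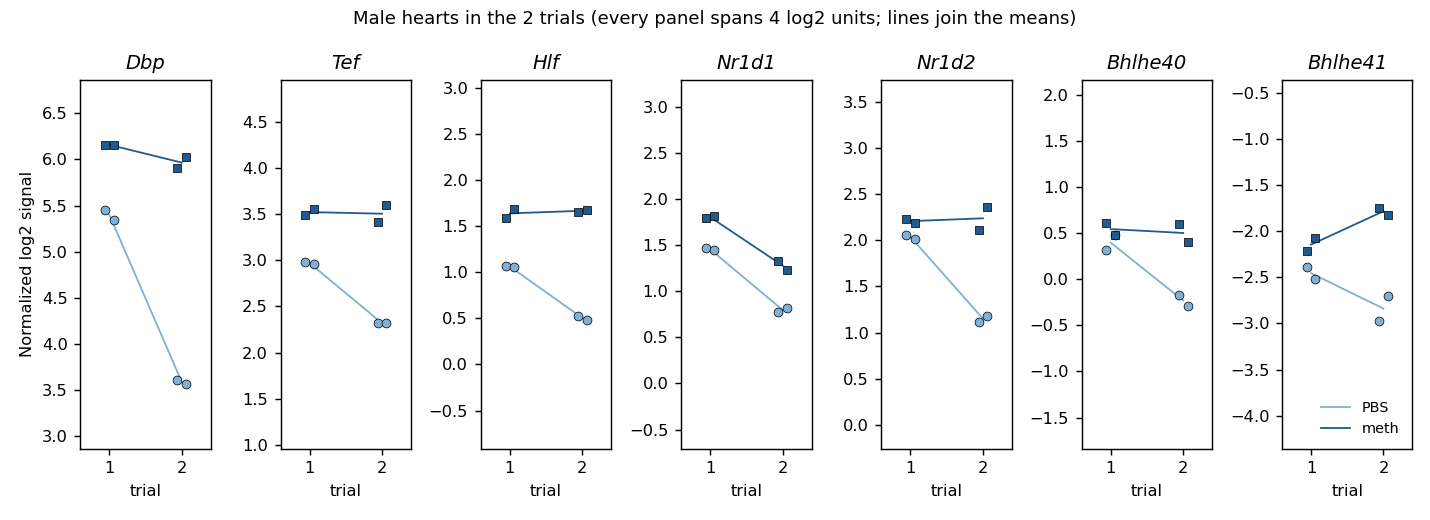
Normalized log2 signal (y axis, every panel spanning 4 log2 units) of the 7 genes in male PBS (circles) and meth (squares) hearts of trials 1 and 2 (x axis), 2 mice to a point pair, with lines joining the means. The PBS lines fall in every panel, by 1.81 for Dbp, while the meth lines run from -0.53 for Nr1d1 to 0.36 for Bhlhe41.

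The differences between meth and PBS males were also fitted within each trial. In trial 2 they were 2.38 for Dbp (SE 0.14, adjusted p = 2.58e-05), 1.19 for Tef (SE 0.13, adjusted p = 0.00188) and 1.09 for Nr1d2 (SE 0.14, adjusted p = 0.00913), and these 3 of the 7 were called, against 0.219% of probes. Hlf (1.16, adjusted p = 0.0536), Bhlhe41 (1.05, adjusted p = 0.078), Bhlhe40 (0.73, adjusted p = 0.109) and Nr1d1 (0.48, adjusted p = 0.577) were positive but not called. In trial 1 none was called in limma (background 0.282%), with 3 at an unadjusted p under 0.05, where 7.29% of all probes had one. Dbp was at 0.76 (adjusted p = 0.0538), Tef at 0.55, Hlf at 0.58, Nr1d1 at 0.35, Bhlhe41 at 0.31, Nr1d2 at 0.17 and Bhlhe40 at 0.15.

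The test of the trial 2 minus the trial 1 response called none of the 7, and no probe on the array (0%), though 5 had an unadjusted p under 0.05, where 4.57% of all probes had one. Dbp had a difference of 1.62 (SE 0.20, adjusted p = 0.0554), Nr1d2 of 0.92 (adjusted p = 0.680), Bhlhe41 of 0.75, Tef of 0.63, Hlf and Bhlhe40 of 0.59 each, and Nr1d1 of 0.13. The adjusted p of Dbp was 0.0124 when male PBS replicate 2 of trial 1 was left out and 0.0194 when female PBS replicate 2 was. Over all single arrays left out it ran from 0.0124 to 0.284, and with the replicate number as a block it was 0.429. All 4 arrays of the second male trial filled slide 3, both treatments among them, so trial and slide cannot be told apart there.

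Other genes of the clock were read from lists, each by its brightest probe. Of the activators, Arntl was lower in both sexes, with -2.40 (adjusted p = 0.00521) for males and -1.81 (adjusted p = 0.0444) for females, Clock was lower when averaged (-0.43, adjusted p = 0.0197), and Npas2 was too dim to be tested. Of 6 repressors, 5 were called higher in males and 1, Per2, in females, and all 6 differences were above 0 in both sexes, with medians of 1.26 and 0.77. Per1 gave 1.08 in males (adjusted p = 0.0107) and Cry2 0.53 (adjusted p = 0.0300). None of the 4 tested genes of the ROR receptors and Nfil3, a repressor at the D-box, and none of 4 tested clock kinases and ubiquitin ligases was called in any of these comparisons.

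**Figure D4:**
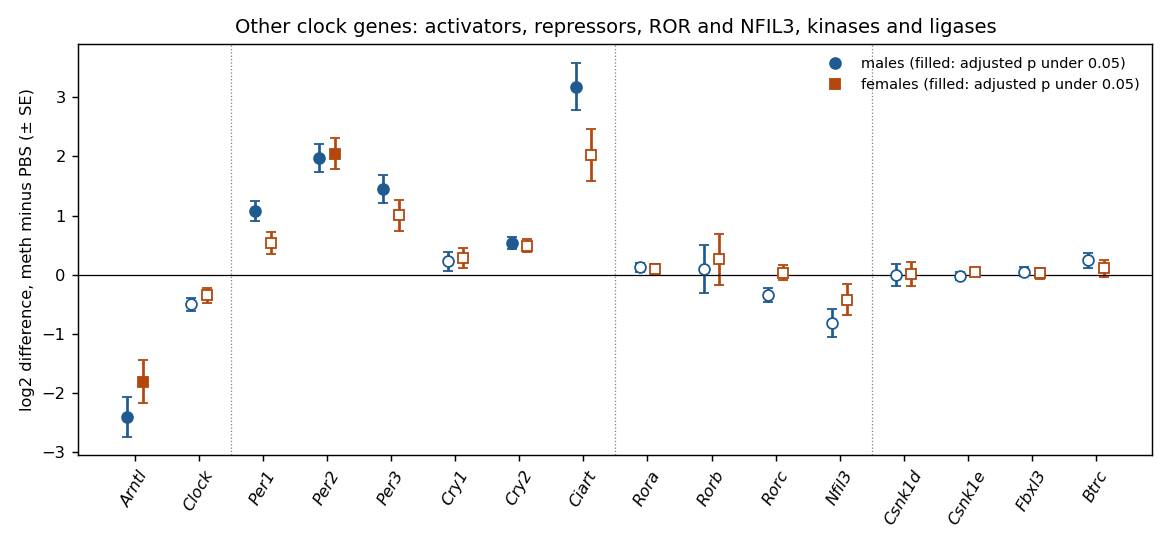
Difference between meth and PBS hearts (y axis, log2, ± SE) for the tested clock genes outside the 7, in males (circles) and females (squares), filled where the adjusted p is under 0.05. Arntl lies lowest, at -2.40 and -1.81, the repressors lie above 0, and the kinases and ligases lie near 0.

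Genes known from other tissues as targets of these factors were read in the same way. Of 8 PAR bZIP targets, 2 were called higher in males and none in females, with medians of 0.05 and 0.22. The 2 were Cyp2a4 and Cyp2a5, near-identical cytochrome P450 genes whose probes may share signal. In male PBS hearts neither was well above background, and in male meth hearts they were at least 281-fold and 422-fold higher (adjusted p = 2.92e-06 and 2.23e-05). The other six, among them Por (0.28, adjusted p = 0.292), the electron donor of the P450 enzymes, and Alas1 (-0.21, adjusted p = 0.488), the first enzyme of heme synthesis, were not called.

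Beside these 2 genes, markers of airway cells moved in the same hearts. All 6 tested of 7 airway secretory markers were called higher in males and 1 in females, and their summed signal, in multiples of the 75th percentile, was 33.2 to 169 in male meth hearts, 0.53 to 0.60 in male PBS hearts, 1.12 to 3.89 in female meth hearts and 1.61 to 3.06 in female PBS hearts. Of 4 tested ciliated airway markers, 3 were called in males and none in females. Their part in the P450 signal was not tested. Of 3 tested alveolar markers, 2 were called higher in males, and Sftpc, a surfactant protein gene, was lower in females (-2.08, adjusted p = 0.0143). All 4 white fat markers had differences above 0 in both sexes, with medians of 0.90 in males and 1.15 in females, and Cfd, the adipocyte protease adipsin, was called in males (1.44, adjusted p = 0.0444). The summed fat signal was 29.1 to 141 in male meth hearts, 15.2 to 47.7 in male PBS hearts, 55.9 to 86.0 in female meth hearts and 23.5 to 29.5 in female PBS hearts. The part of airway, alveolar and fat RNA in the differences of the 7 genes was not tested. All 7 cardiomyocyte markers were well above background on all arrays and none was called in either sex.

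Among genes known as REV-ERB targets, Arntl, given above, was called lower in both sexes. Cry1, Nfil3, Cdkn1a and Insig2 were not called in either sex. Of 13 genes known to cycle in heart or muscle, none was called in males and Pik3r1, a PI3-kinase regulatory subunit, in females (0.37, adjusted p = 0.0460). In the average over the sexes 2 were called higher, Pik3r1 (0.29, adjusted p = 0.0119) and Usp2 (0.66, adjusted p = 0.0392). Klf15 (0.29 in each sex), a regulator of cardiac metabolism, and Kcnip2, a potassium channel subunit, were not called.

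Outside these lists, the genes closest to each member over the 15 arrays were sought among 12618 genes, by the root-mean-square difference of signals centred on their means. These points share arrays and treatments, so a likeness includes the response to meth, and it is a description. For Tef the closest was Tspan4, a tetraspanin, at 0.15, or 31.1% of the spread of Tef itself, followed by Coq10b and Rhobtb1. Tspan4 was also the closest to Nr1d2 (0.18, 46.8%) and the second closest to Dbp, and Coq10b stood among the closest 3 of Tef, Hlf and Nr1d2.

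Genes of the clock repressor list stood among the closest 3 for 2 of the 7. Per3 was closest to Dbp (0.43, 50.6% of its spread). Cry2 was second closest to Bhlhe41 (0.19, 44.8%), after Usp2 (0.18, 42.8%), a gene of the list that cycles in heart or muscle. The Usp2 probe found there was higher in males by 0.65 (adjusted p = 0.0119), while its brightest probe, used for the list above, gave 0.56 (adjusted p = 0.261). For Hlf the closest was Mid1ip1 (0.19, 36.7%) and for Bhlhe40 Lrrc10 (0.14, 40.6%), a cardiac leucine-rich repeat gene. The closest to Nr1d1 were Matk, Cited2 and Pim3 (0.17 each), none of which was called in males or females, and none was shared with another of the 7.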

How the data were processed

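Groups, sex and replicate numbers were taken from the labels, and the trial from the titles. The 7 genes and all lists were chosen with earlier results of these data known. The authors labelled each RNA with Cy3, hybridised it and extracted background-subtracted spot intensities (Feature Extraction 10.5.1.1 in the file headers, 9.1 in the submitters' processing notes), deposited without normalization between arrays. The deposited table of log2 values by the authors equals the log2 signal plus a constant for each array and was used as an alternative. The deposited flags, scored 0 or 1 by the same software, mark outliers and spots well above background.

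Control spots were left out, outlier spots (45 to 88 an array) set to missing, spots of a probe averaged, and each array shifted by its 75th percentile (307 to 589 intensity units). No spot was saturated. Probes well above background (61.4% to 71.4% on an array) on at least 3 of 15 arrays were tested, and precision is limited by how many arrays there are. limma 3.58.1 (lmFit, eBayes) in R 4.3.3 fitted 4 groups and trial, and for the trials a group for each trial. Tests are two-sided. The limma fit was also run on simulated data, with changes larger than those of the 7 genes in either sex and no trial or slide effects. That run therefore does not bear on differences of the size reported here. Where a gene was not well above background in a group, a fold is a bound against the lowest signal well above background on each array. All probes of the 7 genes are reported, the brightest as the main one, with the 3 most similar genes for each. Other genes were named from the lists, and some list genes are not reported here. Plots used matplotlib 3.10.9 in Python 3.11.15.

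Deviations from the group means, taken over both trials, were correlated between same-numbered meth and PBS arrays over 28329 probes. The correlations were 0.26, 0.17, 0.19 and 0.32 in the male pairs and 0.25, 0.39 and 0.62 in the female pairs. The replicate number was tried as a block among the alternatives. In males, differently numbered arrays of the same trial correlated by 0.21 to 0.28. In females, meth replicate 1 correlated with PBS replicate 2 by 0.42, above its own number, meth 2 with PBS 1 by 0.36 and meth 4 with PBS 3, on the same slide, by 0.57. These values do not tell a pairing by number from a shared trial or slide. The alternatives were other background corrections, scalings, filters, blocks, trial assignments, array weights, left-out arrays, other probes and the methods' t-test.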

Additional observations from a re-analysis of the deposited data

How the results depend on the processing

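Calls were counted at an adjusted p under 0.05 among the 7 genes. In males 3 were called, against 1 with the replicate block, 0 with trial 1 arrays alone, 6 with array weights and 0 by the methods' t-test, paired or unpaired. In females 1 was called, against 3 with a filter on all 15 arrays, 0 with the replicate block, 2 with the slide as a block, 3 with it as a random block, 2 with the trial of the source name, 2 with trial 1 arrays alone, and 0 by either t-test. In the average 6 were called, against 3 with the replicate block and 2 with trial 1 arrays alone. The average calls of Bhlhe40 and Bhlhe41 were also lost after normexp correction (adjusted p = 0.189 and 0.347) and without a filter (0.0713 and 0.0571). Without the trial term those of Nr1d2 (0.0615) and Bhlhe40 (0.0874) were lost, and with the trial of the source name that of Bhlhe40 (0.0651). For the trials the count rose from 0 to 1, Dbp, with the filter on all 15 arrays, the slide as a block or random block, and array weights. It stayed at 0 in 20 of 26 alternatives, the replicate block among them. Leaving out 1 array gave 0 to 1 calls in females, 3 to 6 in the average and 0 to 1 between the trials. The 0 in females came without female PBS replicate 2, where 18 of all probes were called higher. The 3 in the average came without female PBS replicate 2 or male PBS replicate 2 of trial 2, with 225 and 203 probes higher. The 1 between the trials came without male PBS replicate 2 of trial 1 or female PBS replicate 2, with 60 and 1 probes called in either direction. The counts between the sexes and between PBS hearts stayed at 0 under every alternative run for these comparisons. The counts over the whole array moved as well: of all probes, 227 were called higher in males, against 110 with the replicate block, 41 with trial 1 arrays alone, 767 with array weights, and 0 and 15 by the paired and unpaired t-test, and 58 in females, against 21 with the replicate block, 101 with the slide as a block, 126 with it as a random block, 35 with trial 1 arrays alone and 0 by either t-test. The female count was also 79 with the filter on all 15 arrays and 60 with the trial of the source name. In the average 319 probes were called higher, against 202 with the replicate block and 88 with trial 1 arrays alone. Between the trials 0 probes were called in either direction, against 1 with that filter, 4 and 3 with the slide as a block and random block, and 9 with array weights.

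Nr1d1 was called in males at adjusted p of 0.0344 with the slide as a block, 0.0377 in the fit of male arrays alone and 0.0465 with array weights. In the fit of male arrays alone the adjusted p was 0.0842 for Dbp and 0.0525 for Tef. For Hlf in males it was 0.0521 after normexp correction, 0.0504 after the median shift and 0.0608 without a filter. In females Nr1d1 turned negative with normexp (-0.038), the replicate block and the paired t-test (-0.068 each), the slide as a block (-0.071) and as a random block (-0.026), and ranged from -0.14 to 0.31 with 1 array left out.

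The male minus female response changed sign with the median shift for Hlf (-0.060) and Nr1d2 (-0.046), with the slide as a block (-0.037), as a random block (-0.00026) and the trial of the source name (-0.014) for Hlf, with trial 1 arrays alone for Dbp (-0.45), Hlf (-0.24), Nr1d2 (-0.40) and Bhlhe41 (-0.26), and with the other two Tef probes (0.12 and 0.033). With 1 array left out it ran from -0.056 to 0.25 for Hlf, -0.079 to 0.16 for Nr1d2, -0.13 to 0.072 for Bhlhe40 and -0.012 to 0.31 for Bhlhe41. Male minus female PBS levels changed sign without the trial term for Dbp (-0.074), Nr1d1 (-0.22) and Nr1d2 (-0.081), with the trial of the source name for Nr1d1 (-0.22) and Nr1d2 (-0.025), and for Bhlhe40 with the median shift (0.018) and trial 1 arrays alone (0.043). With 1 array left out they ran from -0.10 to 0.35 for Nr1d1 and -0.018 to 0.21 for Nr1d2. The causes were not tested, and none of these values passed the threshold. Dbp and Tef stayed called in the average under every alternative run for it. The t-tests and the fits of 1 sex alone were not run for the average.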
